A study of Homo sapiens with 13 samples.

Results

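The regions marked by monomethylation of lysine 4 of histone H3 (H3K4me1) in MDA-MB-231 cells were described from every row of the H3K4me1 peak list, which held 88319 of the 233691 regions in the 6 peak lists of the study. The cells, a long-established triple-negative human breast cancer line with mesenchymal features, carried no listed genotype change and had received no treatment. Chromatin immunoprecipitation followed by sequencing (ChIP-seq) had been carried out with antibodies against H3K4me1, H3K27ac, H3K4me3, RNA polymerase II (Pol II), p300/CBP and CTCF, with 2 merged replicate libraries for H3K4me1 and 1 library for p300/CBP. As each list holds positions and no value per region, the depth is unknown from the lists, no spread between replicates could be given, and no test between conditions was possible. The intervals below are 95% Wilson intervals, which cover counting error only and treat neighbouring regions as if they were separate. The culture is an aneuploid line, and the copy number of a locus and the density of the mark cannot be told apart here, since the input libraries were not analysed.

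H3K4me1 is laid down mainly by the methyltransferases KMT2C and KMT2D and marks enhancers, both those in use and those that are only primed. Enhancers in use also carry H3K27ac, which is deposited by the acetyltransferases p300 and CBP, whereas the nucleosomes right at an active transcription start site (TSS) carry H3K4me3, with H3K4me1 to either side. CTCF is an architectural protein that binds insulators and loop anchors. AP-1 dimers, such as those of Fra-1 (gene FOSL1) and a Jun protein, bind many enhancers of triple-negative breast cancer cells through the sequence TGACTCA.

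Windows of 250 bp from 7 H3K4me1 regions are printed below because the AP-1 sequence set these regions apart from their surroundings most clearly among the 3 motifs searched. They were read from the plus strand of GRCh37 (the same build as hg19), and the capitals mark TGACTCA or its reverse complement TGAGTCA. They were chosen after the values had been seen. The first 3 windows were centred on p300/CBP peaks in the 3 widest regions in introns that had such a match, namely chr19:39174151-39174400 in intron 1 of ACTN4, chr2:36630926-36631175 in intron 2 of CRIM1 and chr20:30283951-30284200 in intron 2 of BCL2L1.
ACTN4: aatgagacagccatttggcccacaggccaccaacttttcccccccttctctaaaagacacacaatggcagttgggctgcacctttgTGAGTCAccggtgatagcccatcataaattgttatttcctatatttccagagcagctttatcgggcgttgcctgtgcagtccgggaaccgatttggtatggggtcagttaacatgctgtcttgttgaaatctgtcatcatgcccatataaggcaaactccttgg
CRIM1: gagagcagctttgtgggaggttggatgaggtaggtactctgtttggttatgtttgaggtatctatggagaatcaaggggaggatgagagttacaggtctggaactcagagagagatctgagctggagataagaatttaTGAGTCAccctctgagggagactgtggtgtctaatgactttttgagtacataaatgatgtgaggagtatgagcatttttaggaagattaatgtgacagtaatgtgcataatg
BCL2L1: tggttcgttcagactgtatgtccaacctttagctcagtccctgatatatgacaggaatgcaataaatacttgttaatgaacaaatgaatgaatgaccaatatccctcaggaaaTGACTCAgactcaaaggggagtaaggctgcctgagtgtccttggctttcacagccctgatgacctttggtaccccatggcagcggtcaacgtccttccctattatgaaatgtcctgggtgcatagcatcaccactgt
The next 2 windows were centred on the p300/CBP peaks with the most matches near genes of the mesenchymal breast cancer program, 2 in each. They lie at chr10:75654401-75654650, 16.4 kb upstream of PLAU, and at chr17:48128426-48128675, 4.92 kb upstream of ITGA3.
PLAU: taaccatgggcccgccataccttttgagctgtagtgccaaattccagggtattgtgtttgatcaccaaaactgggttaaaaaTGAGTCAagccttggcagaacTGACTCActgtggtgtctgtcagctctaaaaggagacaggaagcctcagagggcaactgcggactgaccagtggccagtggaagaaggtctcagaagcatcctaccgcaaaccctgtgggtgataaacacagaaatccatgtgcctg
ITGA3: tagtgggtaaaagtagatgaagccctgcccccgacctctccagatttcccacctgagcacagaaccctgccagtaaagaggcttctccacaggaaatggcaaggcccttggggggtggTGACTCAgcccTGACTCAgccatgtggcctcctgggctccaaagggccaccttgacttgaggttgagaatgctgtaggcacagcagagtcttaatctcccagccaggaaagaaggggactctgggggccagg
Among all regions that met none of the other 5 lists, 14.3% held a match at their centre. The last 2 windows are the centres of narrow regions of this kind, and such a match was required for them. They lie at chr2:182750976-182751225, 5.36 kb upstream of ITPRID2, in a region of 300 bp, and at chr15:66981276-66981525, 13.2 kb upstream of SMAD6, in a region of 500 bp.
ITPRID2: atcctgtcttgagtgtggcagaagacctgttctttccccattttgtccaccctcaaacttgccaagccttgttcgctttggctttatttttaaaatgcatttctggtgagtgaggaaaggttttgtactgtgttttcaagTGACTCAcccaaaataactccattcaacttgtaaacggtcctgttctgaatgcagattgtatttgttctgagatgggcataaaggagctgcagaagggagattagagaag
SMAD6: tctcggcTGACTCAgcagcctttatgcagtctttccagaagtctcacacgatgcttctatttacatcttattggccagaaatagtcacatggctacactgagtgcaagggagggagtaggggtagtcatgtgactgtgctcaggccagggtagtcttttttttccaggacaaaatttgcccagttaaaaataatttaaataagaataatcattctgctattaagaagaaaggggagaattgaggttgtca

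AP-1 sequences were more frequent in the H3K4me1 regions than beside them, and most frequent in windows centred on p300/CBP peaks. TGACTCA, searched on both strands, lay in the central 250 bp of 10372 of 88318 regions, or 11.7% (11.5% to 11.96%; 1 region with undetermined bases at its centre was left out). Windows of the same length 5 kb outside the regions held it in 3.34% of cases (3.25% to 3.43%, n = 146781), and all 250-bp tiles of the genome in 3.82%. Flanking windows that fell in another H3K4me1 region were left out. Of the 8085 windows centred on p300/CBP peaks that touched an H3K4me1 region, 41.4% held it (40.4% to 42.5%). The other sequences searched moved less. ACATTCC, bound by TEAD factors, was found in 4.68% of the region centres, 3.30% of the flanking windows and 12.3% of the p300/CBP windows, and TGTGGTT, bound by RUNX factors, in 5.54%, 4.32% and 14.1%. The mean GC content was 45.8% at the centres, 43.8% in the flanks and 40.9% in the genome tiles, and its part in these shares was not tested. A match is a description of the letters and does not show that a factor was bound.

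The AP-1 share depended on where a region lay and on what else it carried. It was 3.80% at the centres of regions in TSS windows, 8.92% in first introns, 12.6% in other introns and 14.2% in intergenic DNA. Regions that met none of the other 5 lists held TGACTCA at their centre in 14.3% of cases (14.0% to 14.6%) and had 0.444 matches per kb over their whole length, whereas the whole genome had 0.161 per kb and all the H3K4me1 regions together had 0.345 per kb. Among the narrowest regions, of 300 to 500 bp, those without H3K27ac had 0.499 matches per kb and those with H3K27ac 0.160, close to the genome. Regions in TSS windows, to which many of the narrow acetylated regions belonged, had 0.187 matches per kb. The gap between regions without and with H3K27ac closed with width, and between 2 and 5 kb the corresponding values were 0.334 and 0.333 per kb. Above that the order was turned, at 0.247 and 0.296 per kb between 5 and 10 kb and, with 9 regions lacking H3K27ac, 0.164 and 0.266 per kb over 10 kb. Among narrow regions, then, it was those without acetylation that were rich in AP-1 sequences. The observed over expected ratio of CpG dinucleotides was 0.388 at the centres of regions in TSS windows, 0.325 in exons and between 0.235 and 0.242 in introns and intergenic DNA. The matches also lay towards the middle. The central 50% of the width of each region held 59.4% of the AP-1 matches (59.0% to 59.8%), compared with 52.6% of the TEAD and 52.7% of the RUNX matches, and 74.4% of the p300/CBP peak centres (73.5% to 75.4%). In regions over 10 kb the values for AP-1 matches and p300/CBP centres came down to 50.9% and 59.7%. CTCF peak centres lay in the middle in 73.8% of cases in regions of 550 to 1000 bp and in 44.4% in regions over 10 kb, so in the widest regions they lay more often towards the edges.

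The regions covered 167.9 Mb, or 5.87% of the 2859 Mb of determined sequence on chromosomes 1 to 22, X and Y, at 30.9 regions per Mb. Most were narrow and a few were very wide. The median width was 1200 bp, the quartiles were 700 and 2250 bp, and the range ran from 300 to 81650 bp. The 13606 regions of 300 to 500 bp made up 15.4% of the list and 3.22% of the covered bases. The 1107 regions over 10 kb were 1.25% of the list and held 9.94% of the covered bases. The widest 15568 regions, those of 2850 bp or more, held 50% of all covered bases. The shares of regions and of bases by width are drawn beside the gaps in the plot of widths and gaps.

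**Figure D1:**
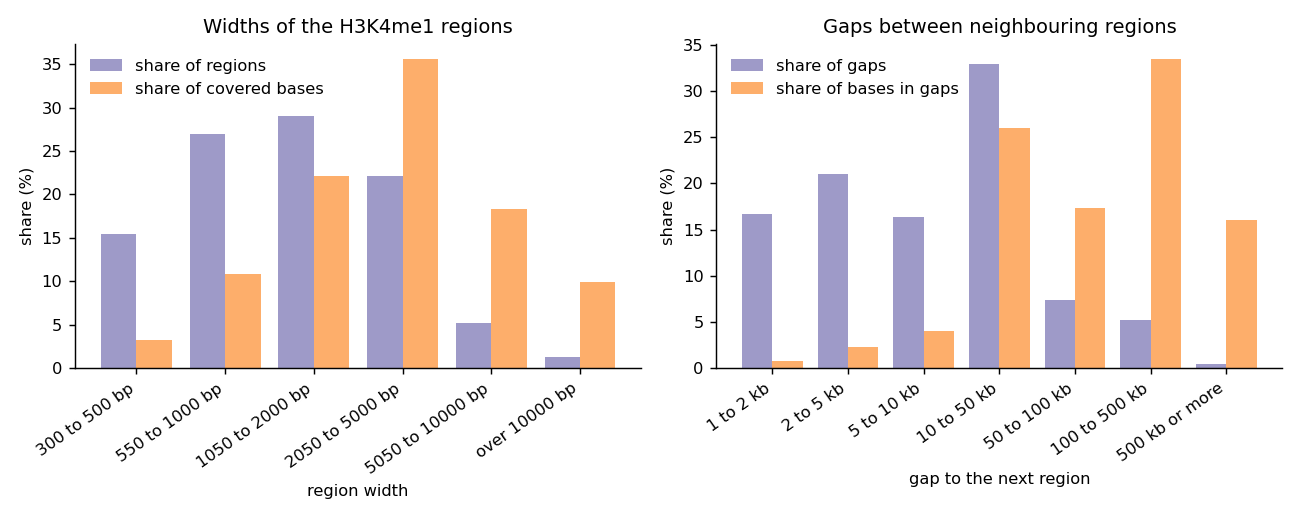
Share (%) of the H3K4me1 regions and of the covered bases in 6 classes of width (left), and share (%) of the gaps between neighbouring regions and of the bases in those gaps in 7 classes of length (right). Regions of 550 to 2000 bp were the most numerous, whereas those of over 2 and up to 5 kb held the most bases (35.5%). Gaps of 10 to 50 kb were the most numerous (32.9%).

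The mark was unevenly spread over the chromosomes. Cover was highest on chromosome 17 (12.8% of determined bases), 19 (11.9%) and 20 (11.7%), followed by 22 (9.06%). Apart from Y, it was lowest on the X chromosome (1.0%), 4 (3.12%), 18 (3.15%), 13 (3.52%) and 7 (3.77%). On Y, 23 regions were listed (0.171%). Whether these cells carry a Y chromosome was not tested, so these regions cannot be taken as Y chromatin. Across chromosomes 1 to 22 and X, the number of regions per Mb went with the number of protein-coding TSSs per Mb (Pearson's r = 0.79, Spearman's rank correlation = 0.79, n = 23), given as a description since all points come from the same list. Chromosomes 20 and 19 departed from each other in this respect: chromosome 20 had 6.23 regions per TSS and chromosome 19 had 2.38. The highest value was on chromosome 10, at 7.21, and the X chromosome had 1.31. The X chromosome also had the narrowest regions of the 23, with a median of 1000 bp.

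The arms of some chromosomes were unlike each other. The long arm of chromosome 20 had 14.9% of its bases covered and the short arm 7.61%. The short arm of chromosome 6 had 10.2% and the long arm 3.42%, the short arm of 18 had 7.04% and the long arm 2.13%, and the short arm of 9 had 2.45% and the long arm 5.79%. The arms of 17 were alike, at 13.0% and 12.8%, as were those of X, at 1.11% and 0.941%. Density of genes did not follow all of these steps, since the short arm of 18 had 4.29 TSSs per Mb and the long arm 3.38, whereas the arms of 6 had 10.5 and 3.96. The share of regions with H3K27ac was lowest on chromosome 20 (33.0%) and highest among chromosomes 1 to 22 on 19 (51.3%).

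**Figure D2:**
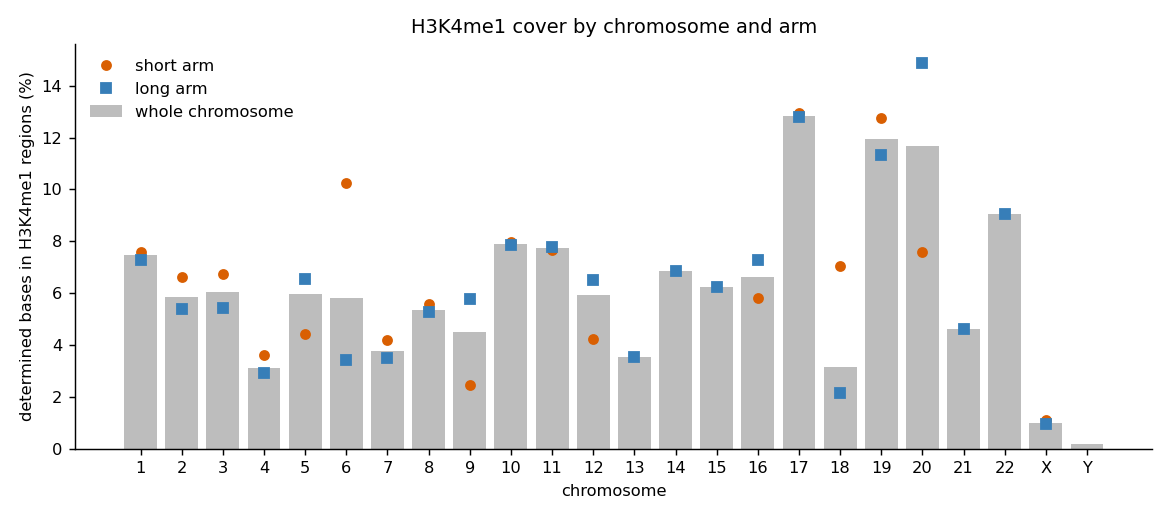
Share (%) of the determined bases of each chromosome that lay in H3K4me1 regions (grey bars), with the short arm (circles) and the long arm (squares) shown apart where the arm has determined sequence. Chromosomes 17, 19 and 20 stand above 11%, X is at 1.0%, and the arms of 6, 18 and 20 are far apart.

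Regions came in groups. The median gap between neighbours was 8400 bp, with quartiles of 2800 and 25150 bp (n = 88123 gaps; the 172 gaps across undetermined stretches of 50 kb or more were left out). No gap was under 1000 bp, which is the distance across which the authors had joined bins. When regions less than 5 kb apart were put in chains, 55041 chains were obtained, of which 36690 were single regions (41.5% of all regions) and 117 held 10 regions or more. The chain with the most regions, 27 over 182 kb, lay in SEPTIN9, which encodes a cytoskeletal GTPase, on chromosome 17. Next came chains of 24 regions in PRKCA, the gene of protein kinase C alpha, 23 in ARHGEF28, a guanine nucleotide exchange factor, and 22 at SHB on chromosome 9. The 18-region chain in BCAR3 was the most densely covered of the 10 chains with the most regions, with 81.0% of 220 kb.

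Regions with close neighbours were wider and more often acetylated. With the nearest region under 2 kb away, the median width was 1400 bp and 53.4% carried H3K27ac (52.8% to 54.0%, n = 26279). At 5 to 20 kb these values were 1150 bp and 30.5%, and at 100 kb or more 850 bp and 19.8% (17.8% to 21.9%, n = 1416). The share with a CTCF peak fell along the same classes from 11.1% to 5.72%.

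Most H3K4me1 lay away from gene starts, but gene starts and first introns were marked beyond their share of the genome. By the position of their centre, 43.5% of regions were intergenic (43.1% to 43.8%), 28.4% lay in an intron other than the first (28.1% to 28.7%), 16.2% in a first intron (15.9% to 16.4%), 9.08% in a TSS window (8.89% to 9.27%) and 2.87% in an exon (2.76% to 2.98%). A TSS window is the 3 kb centred on the canonical TSS of a protein-coding gene. Only protein-coding genes define these classes, so intergenic DNA here includes genes of other types. These classes take up 59.0%, 28.3%, 8.61%, 1.93% and 2.19% of the determined genome, respectively, so regions were 4.70 times as frequent in TSS windows as the space they take, 1.88 times in first introns, 1.31 times in exons, 1.0 times in other introns and 0.737 times in intergenic DNA. Regions in TSS windows were narrow (median 800 bp), and those in first introns were the widest (median 1500 bp, 9.45% of them 5 kb or wider). The median distance from a region's centre to the nearest protein-coding TSS was 29672 bp, and 2440 regions (2.76%) lay 500 kb or more from any.

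Distance from the gene start went with H3K27ac close by but not further out. Within 1.5 kb of a TSS 72.1% of regions carried H3K27ac (71.1% to 73.1%), and at 1.5 to 5 kb 63.2% did (62.3% to 64.0%). From 5 to 20 kb on the share was 32.9% (32.2% to 33.6%), and it lay between 32.1% and 35.4% in all classes beyond. The regions at 1.5 to 5 kb were also the widest, with a median of 1600 bp, compared with 800 bp within 1.5 kb.

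H3K4me1 flanked active gene starts and was low on the start itself. Of the 12218 TSSs with H3K27ac in their 3-kb window, 9.32% lay inside an H3K4me1 region, compared with 41.8% at position -1150 bp and 57.0% at position 1650 bp, where the profile peaked on either side. At 10 kb upstream and downstream the shares were 12.2% and 14.3%. The 7663 TSSs without H3K27ac showed no such shape, with 6.88% at the TSS, 6.67% at 10 kb upstream and 6.54% at 10 kb downstream. An H3K4me1 region touched the window of 85.3% of the starts with H3K27ac (84.7% to 85.9%) and of 18.0% of those without (17.1% to 18.9%). The downstream side was the heavier one also further out: 8064 region centres lay 1.5 to 5 kb downstream of the nearest TSS and 4004 the same distance upstream.

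**Figure D3:**
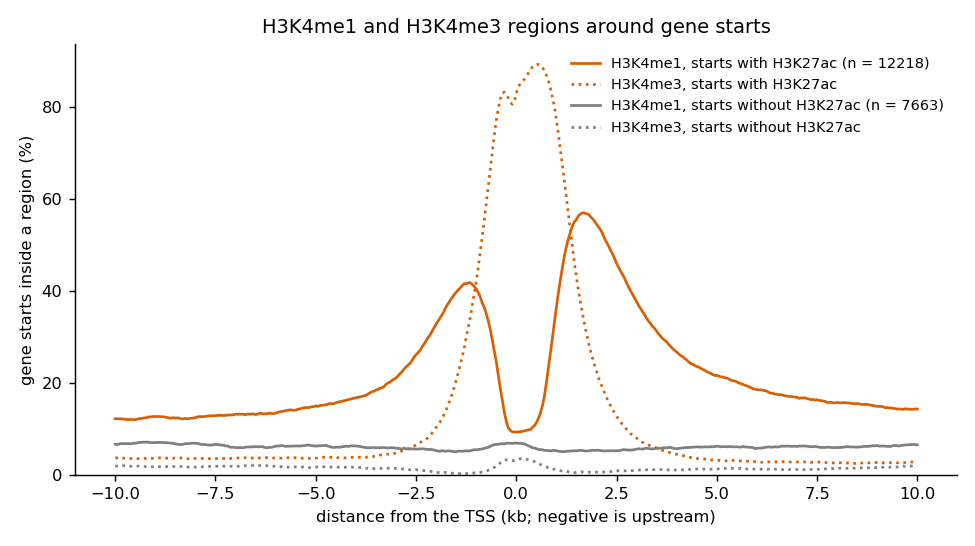
Share (%) of protein-coding gene starts that lie inside an H3K4me1 region (solid) or an H3K4me3 region (dotted), by distance from the TSS in kb, for starts with (orange) and without (grey) an H3K27ac region in the 3-kb window. H3K4me1 at starts with H3K27ac has a peak of 41.8% upstream and 57.0% downstream, and 9.32% at the TSS, where H3K4me3 is high.

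Within genes the mark thinned out from start to end. In the 6754 protein-coding genes of 50 kb or longer, the mean cover was 16.6% in the first 10% of the gene's length, 10.2% in the next and 6.80% in the last. Of all 19881 protein-coding genes, 76.5% had a region in the gene body and 59.4% one in the TSS window.

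The wider an H3K4me1 region was, the more of the other lists it met. H3K27ac overlapped 40.3% of all regions (39.98% to 40.6%), rising from 15.2% at 300 to 500 bp to 99.2% over 10 kb. H3K4me3 overlapped 24.7%, rising from 16.5% to 69.4%, and Pol II 13.0%, rising from 5.95% to 68.7%. p300/CBP overlapped 6.70%, rising from 0.537% to 62.6%, and CTCF 10.4%, rising from 5.24% to 37.0%. A wide region has more room for an overlap, so the central 250 bp were also compared. There H3K27ac still went from 13.0% to 62.4% and p300/CBP from 0.485% to 5.06%, whereas H3K4me3 stayed between 7.97% and 14.1% and CTCF was at 3.92% in the narrowest class, 4.82% in the next and 1.17% over 10 kb. CTCF and H3K4me3 were thus met more often by the widest than by the narrowest regions as a whole, and less often at the centre, where H3K4me3 was at 14.1% and 10.9%.

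**Figure D4:**
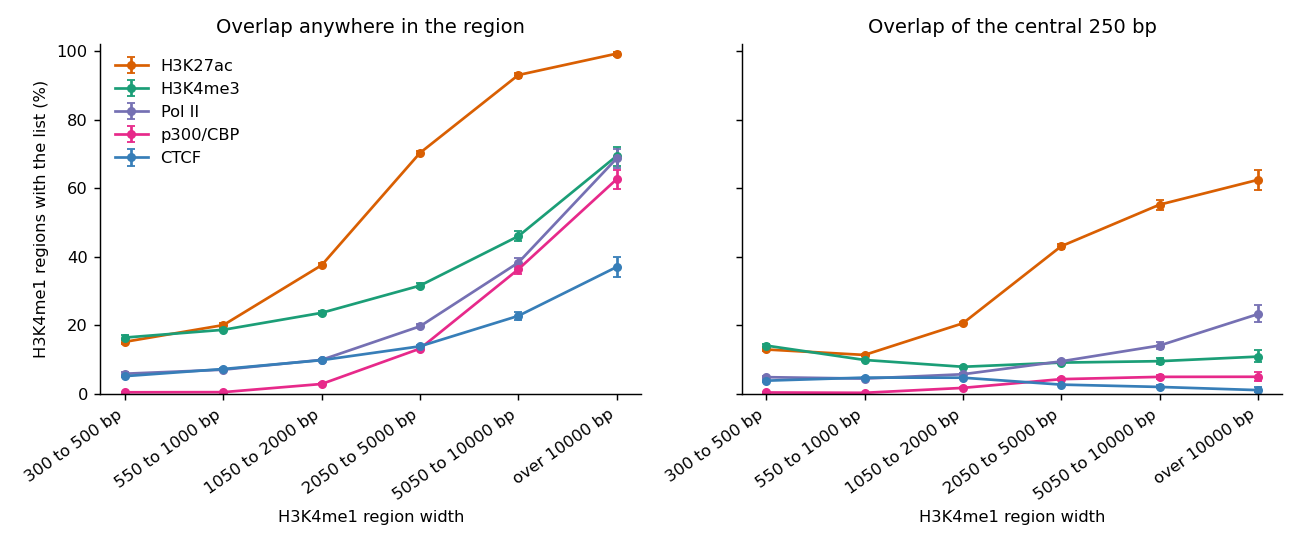
Share (%) of H3K4me1 regions that overlap each of the 5 other lists, in 6 classes of region width, anywhere in the region (left) and in its central 250 bp (right), with 95% Wilson intervals as bars. All 5 lists rise with width on the left, where H3K27ac reaches 99.2%, and at the centre CTCF falls to 1.17% in the widest class.

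The relation of H3K27ac to width held in each place but was weakest at gene starts. In TSS windows 62.3% of the regions of 300 to 500 bp carried H3K27ac, compared with 6.47% of such regions in first introns, 3.88% in other introns and 8.79% in intergenic DNA. Between 5 and 10 kb the shares were 98.2%, 89.0%, 92.1% and 95.4%, respectively. p300/CBP peaks were scarce on regions in TSS windows (0.536%) and most frequent on intergenic ones (9.13%). The p300/CBP list as a whole had 1.20% of its peak centres in TSS windows, below the 1.93% of the genome that these windows take, whereas the H3K27ac list had 27.9%. The study reports fewer p300/CBP peaks than this list holds, with only a small share at promoters, so the sets of peaks are not the same. Whether peaks at gene starts had been removed from the p300/CBP list is not given in the sources used here, so the low values at TSS windows cannot be read as low binding there.

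Regions that met no other list were the largest single class. They numbered 43833, or 49.6% (49.3% to 49.96%), with a median width of 900 bp, and 73.8% of the regions of 300 to 500 bp but 1 of the 1107 regions over 10 kb belonged to them. They lay in TSS windows in 2.69% of cases, in first introns in 16.0%, in other introns in 33.0% and in intergenic DNA in 46.0%. The next classes were regions with H3K27ac alone (10469, median 2150 bp), with H3K27ac and H3K4me3 (9255, median 1350 bp) and with these plus Pol II (5273). The 375 regions that met all 5 lists had a median width of 8950 bp. Seen from the other side, 89.4% of the H3K27ac regions, 75.4% of the H3K4me3 regions, 57.9% of the p300/CBP peaks, 44.7% of the Pol II regions and 25.8% of the CTCF peaks touched an H3K4me1 region.

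The 10 densest loci lay on 7 chromosomes, with 3 of them on chromosome 17. The median 1-Mb window of the genome had 4.03% of its bases covered, and 140 of 2810 windows had no region. The densest window, chr20:48500001-49500000, had 46.1% covered by regions with 134 centres, and the genes with the most covered bases there were PTPN1, a protein tyrosine phosphatase, RIPOR3 and the read-through gene PEDS1-UBE2V1. The next, chr1:94000001-95000000, had 42.7% covered at BCAR3, an adaptor of integrin signalling, ARHGAP29, a GTPase-activating protein, and ABCA4, a transporter of the retina. In chr17:16900001-17900000 (37.0%) the leading genes were MPRIP, which binds myosin phosphatase, RAI1 and TOM1L2. The window at chr8:118600001-119600000 (35.2%) differed in its makeup, with 2 protein-coding genes, EXT1, which builds heparan sulfate chains, and SAMD12, and 49 region centres, fewer and wider than in the others.

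The remaining windows of the 10 densest had 31.5% to 34.6% of their bases covered. On chromosome 11 the leading genes were MICAL2, an actin oxidase, TEAD1, a transcription factor of the Hippo pathway, and DKK3. On chromosome 6 they were TRERF1, CCND3, which encodes cyclin D3, and C6orf132, and on chromosome 15 SMAD3 and SMAD6, a mediator and an inhibitor of TGF-beta family signalling, with MAP2K1, a MAP kinase kinase. Chromosome 17 had 2 more windows, with ABCC3, ITGA3, an integrin subunit, and LUC7L3 in the first and NMT1, MAP3K14, a kinase of the non-canonical NF-kB pathway, and PLEKHM1 in the second. GNAI3, SORT1 and ELAPOR1 led the last, on chromosome 1. With windows of 500 kb, 6 had over 50% of their bases covered. The first was the same locus at PTPN1 (59.3%), followed by EXT1 (58.95%), SMAD3 (51.4%), BCAR3 (51.3%), DST (50.3%) and the surroundings of MYC (50.2%). Each of the 10 windows of 1 Mb also held at least 7 p300/CBP peaks and 45 H3K27ac regions. The whole lists held 13984 p300/CBP peaks and 41034 H3K27ac regions, for 2859 Mb of determined sequence. The lowest p300/CBP count was thus nearer to the average per Mb than the lowest H3K27ac count was.

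**Figure D5:**
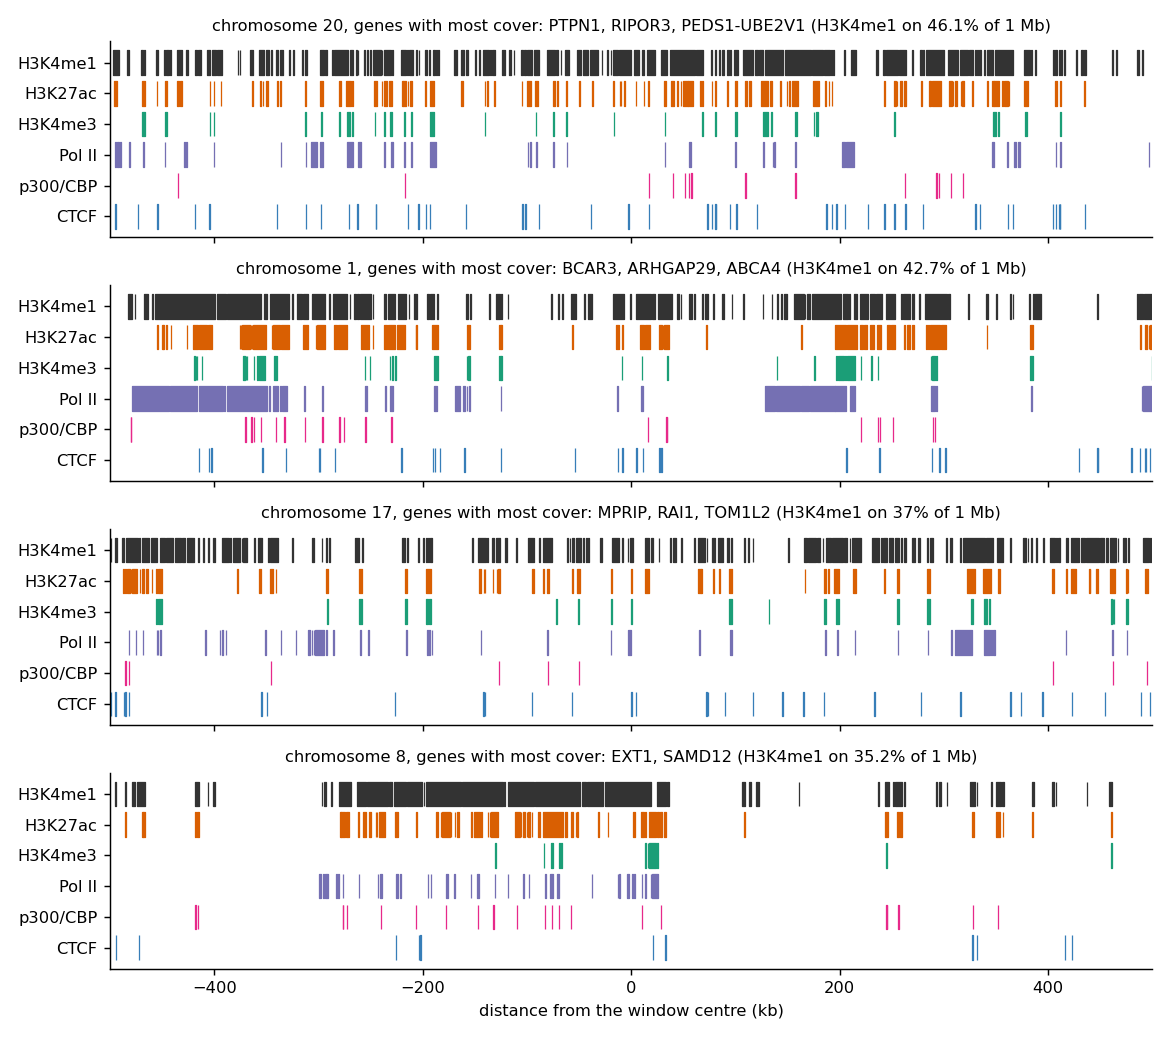
Regions of the 6 lists in the 4 densest 1-Mb windows, by distance in kb from the centre of the window; each bar is a region, drawn with a thin outline so that peaks of 100 bp remain visible. H3K4me1 covers 46.1%, 42.7%, 37.0% and 35.2% of the windows, as many separate regions on chromosomes 20 and 17 and as near-continuous blocks at BCAR3 and EXT1, and Pol II forms a long block at BCAR3 but not at EXT1.

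Of the 10 widest regions, 8 lay within a single protein-coding gene and 2 lay outside protein-coding genes. Genes of other types were not considered for these regions. The widest, of 81650 bp (chr8:128852001-128933651), was 1 of these 2, 144 kb from the TSS of MYC, the gene of a growth-promoting transcription factor. It held 15 H3K27ac regions, 9 p300/CBP peaks and no CTCF peak. It was followed by 63250 bp in ACTN4, which encodes the actin crosslinker alpha-actinin-4, 59250 bp in CRIM1, 58850 bp in SMURF2, an E3 ubiquitin ligase, 57800 bp in BCAR3, 56300 bp in BCL2L1, the gene of the survival protein Bcl-xL, 53850 bp in CMIP, 49100 bp in TRIO, a guanine nucleotide exchange factor, and 48000 bp in MYOF, which encodes the membrane protein myoferlin. The tenth, of 46050 bp, also lay outside protein-coding genes, on chromosome 11, 34.9 kb from the TSS of BLID. None of these 10 regions contained a protein-coding TSS. They differed in the other lists: Pol II lay under 100% of the BCL2L1 block, 98.3% of that in ACTN4 and 97.2% of that in CRIM1, but under 0.305% of the block in TRIO and 9.49% of that near MYC. The blocks in SMURF2, BCAR3 and CMIP held no p300/CBP peak.

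Counted over whole genes, EXT1 had the most H3K4me1, with 275 kb in 17 regions or 86.6% of the gene. DST, which encodes the cytoskeletal linker dystonin, followed with 245 kb in 45 regions (49.2%), then BCAR3 with 204 kb (71.5%), PRKCA with 199 kb (39.2%), CMIP with 182 kb (68.0%) and FRMD4A with 181 kb (22.2%). RUNX1, the gene of a transcription factor, had 166 kb in 65 regions, or 13.6% of a gene that the annotation extends over 1217 kb. CRIM1 (152 kb, 77.96%), ARHGEF28 (152 kb, 48.1%) and ASAP1, an Arf GTPase-activating protein (152 kb, 38.8%), completed the first 10. FRMD4A differed from the rest in that the 100 kb around its canonical TSS was only 1.15% covered, its regions lying further inside the gene. Ranked by the 100 kb around the TSS instead, SMURF2 came first with 92.3%, although none of its regions touched the 3-kb TSS window, followed by BCAR3 (81.5%) and TGM2, the gene of a transglutaminase (78.03%), and ARHGAP29 was also among the first 5 (75.75%).

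The longest stretches without H3K4me1 lay on chromosomes X, 13 and 9. The longest, 6.45 Mb at chrX:87861801-94314700, held 6 protein-coding TSSs, among them that of PCDH11X, a protocadherin of neurons. The second, 5.30 Mb at chr13:54357851-59660050, held PCDH17 and the PRR20 genes. The third, 5.26 Mb at chr9:20756201-26012750, held 24 TSSs, including the interferon alpha cluster and the tumour suppressors CDKN2A and CDKN2B with MTAP, and the other 5 lists had 8 regions in it in all. CDKN2A is known to be deleted in this line, and the part of that in the stretch was not tested. Of the others, 4.91 Mb on chromosome 9 held PTPRD, and 4.63 Mb on X held MAGEB genes of the germline and IL1RAPL1. The absence of CTCF was not general in these stretches, as the first had 15 CTCF peaks and the fifth 20. The lists rest on uniquely mapped reads, so repeated genes such as the PRR20 copies could have lost reads in any case.

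Genes of the mesenchymal program had much H3K4me1 around their TSS, and marker genes of cells outside the breast had little. The measure was the percent of the 100 kb centred on the canonical TSS that lay in H3K4me1 regions, with a median of 8.22% over all 19881 protein-coding genes. For the list of 30 mesenchymal and basal B breast cancer genes the median was 27.5%, 28 members were above the median of all genes, and 25 had a region in the TSS window, or 83.3% compared with the 59.4% of all genes. Its highest members were ITGA3 (62.4%), EGFR, the epidermal growth factor receptor (50.8%), and PLAU, the protease urokinase (50.5%). Its lowest were FN1, fibronectin (8.40%), SNAI2, the repressor Slug (5.55%), and ETS1 (3.90%), although 40.1% of the ETS1 gene body was covered. High cover was not particular to the mesenchymal list, as the medians of the luminal and ribosomal protein genes were 18.1% and 20.5%. This and the other gene lists were chosen with earlier results of these data known. The 33 protein-coding genes that the study's results name as capture viewpoints had a median of 26.3%, all 33 above the median of all genes. This list leaves out a viewpoint at a gene that is not protein-coding. It also leaves out CD44, which stands in the study's probe list and is counted here among the mesenchymal and basal B genes. The 33 genes were picked by the study in these cells, so their direction is not independent evidence. KRT80, a keratin (65.9%), TGFB2, a TGF-beta ligand (47.4%), and CDCP1 (42.0%) were highest, and MAP2K1 (12.5%), ITPRID2 (11.7%) and FNDC3B (11.1%) lowest.

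Genes of the transcription factors linked to AP-1 and the Hippo pathway were also well covered. The 15 genes of AP-1 and related bZIP factors had a median of 27.7%, with FOSL2, the gene of Fra-2 (43.6%), FOSB (42.8%) and MAFF (42.3%) highest, FOSL1, the gene of Fra-1, at 41.8%, and FOS (16.2%), JDP2 (15.7%) and BATF (11.5%) lowest. All 15 were above the median of all genes and all had H3K27ac in the TSS window, as did 12218 of all 19881 genes. Expression was not measured here, and the study states that Fos and FosB were not detectable in these cells. The 14 TEAD and YAP/TAZ genes and targets had a median of 25.8%, from CCN1 (49.5%), TGFB2 (47.4%) and TEAD1 (45.0%) down to TEAD4 (12.9%), CCN2 (8.70%) and TEAD2 (8.57%). Several genes stand in more than 1 list, and neighbours such as JDP2 and BATF, or CAV1 and CAV2, share part of their 100 kb.

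Luminal genes ranged from members with much H3K4me1 to 4 members with none within the 100 kb. The median of the 26 was 18.1%, compared with 8.22% over all genes, and 16 members were above the latter. CLDN7, a tight junction claudin (43.5%), MLPH, melanophilin (36.9%), and ELF3, an epithelial ETS factor (36.5%), were highest, and KRT8, KRT18 and KRT19 lay between 25.7% and 32.0%. ESR1 and PGR, which encode the receptors for estrogen and progesterone, and MYB had no region within the 100 kb. ESR1 still had 8 regions in its long gene body, covering 3.72% of it. FOXA1, the pioneer factor of luminal cells, was at 3.05%, whereas GATA3 was at 19.2% with no region in its TSS window.

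By their medians, ribosomal protein genes stood above all genes and olfactory receptor genes far below. The 56 cytosolic ribosomal protein genes, which every cell expresses, had a median of 20.5% and a region in the TSS window in 49 cases, or 87.5% compared with the 59.4% of all genes. RPLP2 (53.4%), RPS14 (48.0%) and RPL23 (39.4%) were highest and RPS20 (1.25%), RPS3A (1.0%) and RPS6 (0.450%) lowest. The 14 genes of enzymes that write or erase H3K4 methylation and H3K27 acetylation had a median of 10.6%, led by SETD1B (36.4%), KMT2B (20.4%) and SETD1A (17.0%), with KDM1B (3.65%), EP300, which encodes p300 (3.50%), and KDM6A (1.55%) lowest. All 14 had H3K27ac in the TSS window, compared with 12218 of all 19881 genes, and 8 had an H3K4me1 region there, or 57.1% compared with the 59.4% of all genes. The 20 markers of hepatocytes, neurons, astrocytes, erythroid, lymphoid and muscle cells had a median of 4.05%. The 5 hepatocyte genes among them spread widely, with SERPINA1 at 11.3% and APOA1 at 11.1%, both with a region in the TSS window, ALB at 2.0%, APOB at 0.550% and TTR at 0. GFAP (40.5%), CD79A (18.0%) and CD3E (12.8%) were highest. GFAP, a marker of astrocytes, departed from the list in having 2 regions over 91.7% of its body. GFAP also had H3K27ac in its TSS window, as did SYP. The 404 olfactory receptor genes, which are silent outside the olfactory epithelium, had a median of 0.350%, with 191 at 0 and 30 with a region in the gene body, or 7.43% compared with the 76.5% of all genes. OR10A3 (26.7%), OR10A6 (23.8%) and OR2V2 (23.5%) were the highest.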

How the data were processed

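ChIP-seq libraries of MDA-MB-231 cells had been aligned to hg19 by the authors with BWA-backtrack 0.7.12, as the study's methods state, whereas the submitters' processing notes name Bowtie2. The authors turned uniquely mapped reads into a signal in 50-bp bins with PASHA, merged the 2 H3K4me1 replicates, scaled the signal, subtracted the background and took as peaks the stretches above a threshold, set with the Integrated Genome Browser. For H3K4me1 this threshold was 30, the minimum run 250 bp and the maximum gap 1000 bp. The deposited lists hold positions in base pairs, with no counts, heights or scores, so depth and replicate error are unknown.

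Starts and ends lie 1 past multiples of 50, and ends were treated as the first base after the region. Coordinates are printed as listed. Gene structures came from the canonical transcripts of protein-coding genes in GENCODE release 44 mapped to GRCh37, the same build, with precedence TSS window, exon, first intron, other intron, intergenic. An overlap of 1 bp counted as shared. Dense windows were 1 Mb, taken greedily without overlap. Python 3.11.15, NumPy 2.4.6, SciPy 1.17.1 and matplotlib 3.10.9 were used, and the functions were tested on simulated data. The regions and the gene lists were chosen with earlier results of these data known. Named genes were, per list, the 3 highest and 3 lowest, per dense window the 3 most covered, and those at the 10 widest regions, the 10 most covered bodies and the 5 longest empty stretches. Others named, and the printed sequences, were chosen after their values were seen. Alternatives changed the regions kept, their joining, their placement, the overlap required and the window sizes. Some genes that the naming rule selects are not reported here.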

Additional observations from a re-analysis of the deposited data

How the results depend on the processing

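No paired analysis was possible because both H3K4me1 replicates stand merged in 1 list, and leaving out either of them was not possible. A stricter signal threshold could not be applied without a value per region, and regions at least as wide as the median were kept in its place. Of 51 alternative values, 2 stayed within the limits set and 49 moved. No limits were set for the median width, the gaps, the densest window or the list ratios, so these could not count as unmoved. The limits for the shares were the Wilson intervals, which are narrow with so many regions. The count of moved values therefore says little about stability. No list ratio crossed from one side of the median of all genes to the other. Shares by place were not compared with the genome under the alternatives. With the wider regions, 45085 remained, the median gap was 14700 bp, the shares in TSS windows, exons, first introns, other introns and intergenic DNA were 4.98%, 3.20%, 19.2%, 29.8% and 42.8%, and the shares with H3K27ac, H3K4me3, Pol II, p300/CBP and CTCF were 60.4%, 31.0%, 18.8%, 12.5% and 13.8%. Joining regions less than 3 kb apart gave a median width of 1600 bp and a median gap of 14650 bp. In the same order of places, the shares were 16.7%, 10.0%, 11.9%, 20.6% and 40.8% when any base of a region decided, 11.9%, 2.72%, 15.1%, 27.5% and 42.8% with all basic TSSs, and 13.8%, 3.41%, 20.7%, 32.0% and 30.1% with all genes of the annotation. In the same order of lists, the shares were 15.4%, 4.89%, 4.63%, 0.109% and 1.0% when 50% of the region had to be covered, and 24.3%, 9.85%, 6.81%, 2.00% and 4.04% for the central 250 bp. The densest 500-kb window had 59.3% of its bases covered. With 20 kb in place of 100 kb around the TSS, the ratio of the list median to that of all genes was 3.23 for the capture viewpoints, 3.54 for the basal B, 1.11 for the luminal, 3.50 for the AP-1, 3.46 for the TEAD and YAP/TAZ, 1.62 for the enzyme, 3.01 for the ribosomal, 0.352 for the other-lineage and 0 for the olfactory list. The luminal ratio fell most, from 2.20. Intergenic shares depended most on the gene set. As no depth or signal is known, a region that is missing from the list may lie below the threshold.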

Other observations

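Very long genes varied widely in how much of their body carried H3K4me1. The 324 protein-coding genes of 500 kb or longer had a median of 1.83% of their body covered, and 15 of them had no region. Genes of this length have more room for a region than others, and over all protein-coding genes 76.5% had one in the body. Among these 15 were PTPRD, DMD, FAT3, SGCZ and PCDH11X, of which DMD encodes dystrophin and SGCZ a sarcoglycan of the same muscle complex. At the other end stood PRKCA, with 39.2% of its body covered, SH3RF3 (26.4%) and FRMD4A (22.2%). These genes were named after their values were seen.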
